A study of Mus musculus with 20 samples.

Results

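The comparison described here asks what 5 fractions of 2 Gy in the irradiated arm did to fibroblast gene expression in common across the 2 organoid-conditioned media of the study. It sets 8 libraries of the irradiated arm against 8 libraries without irradiation, with the medium as a block, and uses 16 of the series' 20 libraries. All 16 came from cultured colon fibroblasts of C57BL6/J mice that received organoid-conditioned medium for 24 h, in Advanced DMEM F12 with 10% FBS as the base culture medium. The 4 groups were APTKA medium, APTK medium, irradiated APTKA medium and irradiated APTK medium, with 4 libraries each, numbered I to IV as in the labels. APTKA and APTK name the organoids, with no expansion in the labels. Which of the cultures received the radiation, organoids or fibroblasts, is not stated, and the series has neither an irradiated group without organoid medium nor a group with unconditioned medium. The remaining 4 libraries, untreated fibroblasts titled Wild-Type Fibroblasts in the labels, are in neither arm and are given only as reference levels. No label ties a replicate to its own culture or animal, and p-values here therefore reflect only how far the libraries of a group lie apart, possibly for technical reasons. By its title, the series is about inflammatory fibroblasts in rectal cancer and how they relate to therapy resistance.

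Several pathways are known to respond to ionising radiation or to the soluble products of irradiated cells. DNA breaks activate the kinases ATM and ATR, which stabilise the transcription factor p53. p53 then raises the cell cycle inhibitor Cdkn1a (p21), its own ligase Mdm2 and genes of cell death. Type I interferons bind the receptor Ifnar1/Ifnar2 and signal through Jak1 and Tyk2 to a complex that holds Stat2 and Irf9 and binds interferon-stimulated response elements in antiviral genes. Oxidants and electrophiles release the transcription factor NRF2 (Nfe2l2) from Keap1, and NRF2 then binds antioxidant response elements in genes of glutathione, thioredoxin and NADPH supply.

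The 16 libraries held 17.3 to 31.6 M counts, and 14617 genes passed the expression filter. Fibroblast markers, in counts scaled to library size (CPM), summed to 48370 to 73140 per library, while the epithelial, lymphocyte and neutrophil lists stayed at or below 3.26, 0.375 and 0.14 CPM in sum. Pericyte and smooth muscle markers summed to 855 to 1255 CPM, led by Cnn1 and Myh11, glial and neuronal ones to 29.9 to 126 CPM, of which Tubb3 alone reached 125, and macrophage ones to 8.23 to 11.3 CPM; no marker of another cell type was called in the pooled test. Cd3e, Cd2 and S100a9 were at 0 in all 16, and Epcam and Ptprc reached at most 0.112 and 0.19 CPM. Irradiated APTK medium was the least uniform group. After the medium was removed, its library II (17.3 M counts, the shallowest) scored 39.8 on principal component 1, which held 18.1% of the variance, while the other 15 scored between -12.6 and 6.43. Its library IV lay at -12.6, beside the plain APTK libraries (-11.2 to -7.56) and not beside the irradiated libraries I and III (5.69 and 5.90). Features of ribosomal RNA took 3.71% of the counts in its library I and 2.52% in IV, against at most 0.49% in the other 14. The share of mitochondrial transcripts was 0.534% to 1.23% in irradiated APTK medium, 0.765% to 0.922% in APTK medium, 0.442% to 0.586% in irradiated APTKA medium and 0.404% to 0.598% in APTKA medium. This share is partial: of 13 mitochondrially encoded protein genes, 6 had 0 counts in every library, mt-Co2 and mt-Co3 among them. The part of these library differences in the results was not tested, but counts are given below without libraries II and IV where they moved.

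At the threshold of the main test, the irradiated arm differed from the arm without irradiation in few genes and by small amounts. The number of genes depended on the method and on single libraries. With edgeR's quasi-likelihood test and a false discovery rate (FDR) of 5%, 323 of 14617 genes were called (2.21%), 171 higher (1.17%) and 152 lower (1.04%) with irradiation. In what follows, genes called higher or lower passed this threshold, and a value with ± (SE) and an adjusted p is the pooled log2 fold change from this test. Before adjustment, 2504 of the 14617 genes had a p under 0.05 in either direction. List counts at an unadjusted p are to be read against that share. The median absolute log2 fold change of the called genes was 0.27. Only 63 of them changed at least 1.5-fold, 8 upwards and 55 downwards, and the 14 that changed at least 2-fold all fell. The median over all tested genes was 0.0031, which the scaling sets near 0. Without irradiated APTK library II, 542 genes were called, and without its library IV 850, of which 303 and 320 were among the 323. Calls numbered 125 to 194 when 1 of 11 libraries was left out (APTKA II, III or IV, APTK II, III or IV, irradiated APTKA I, III or IV, irradiated APTK I or III), with the fewest without APTK III, as the bar plot of left-out libraries shows. Leaving out APTKA I, APTK I or irradiated APTKA II gave 383, 268 and 257. The balance of higher and lower calls was not stable: upper-quartile scaling gave 96 higher and 182 lower, no filter on low counts 309 and 361, and leaving out APTK I 106 and 162. Many single calls lay close to the threshold: of the genes named below, Pidd1, Incenp, Cxcl12, Gbp3, Chac1, Xbp1, Loxl2, Timp2, Cd55, Ackr3 and Isg15 each lost their call when any of 10 to 14 libraries was left out, F3 and Pold1 with 8 and 9, Jak3, Msh6, Hdgfl3, Jak1 and Cilp with 6, 5, 4, 3 and 1, always with an unchanged direction. Over all 27 alternatives, Cilp lost its call in 5. DESeq2 and the fits that average the effects within each medium called neither Cilp nor Chac1.

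**Figure D1:**
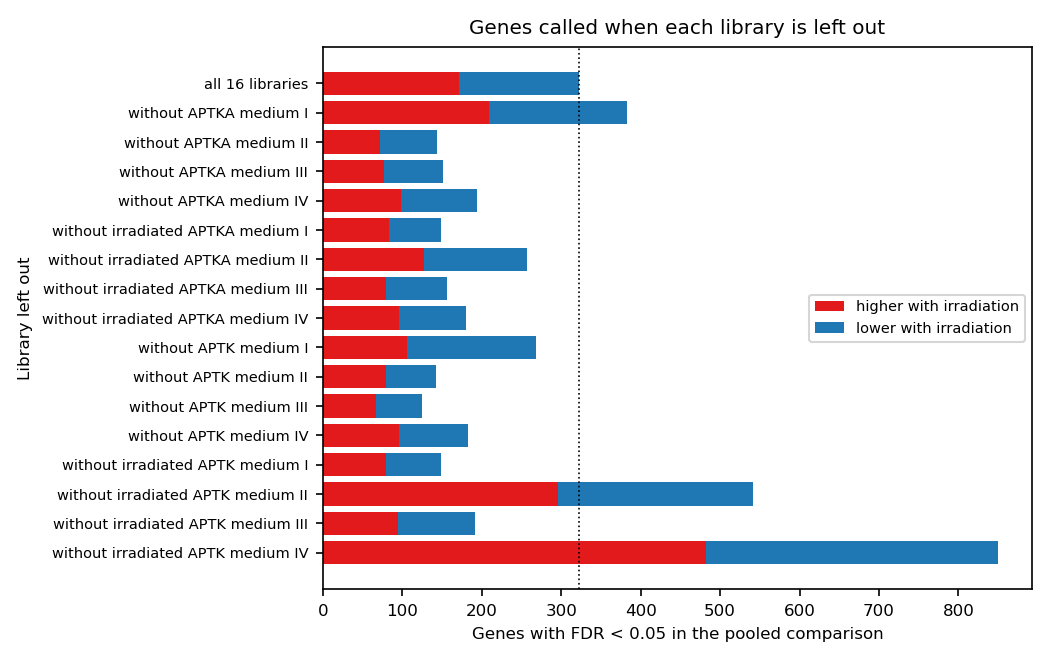
Number of genes called at FDR below 0.05 in the pooled comparison (x axis) with all 16 libraries and with each library left out in turn (y axis), split into genes higher (red) and lower (blue) with irradiation; the dotted line marks the count with all 16. The count reached 850 without irradiated APTK library IV and 125 without APTK library III.

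The block design asks for an effect common to both media, and the within-medium effects share no library. Tested alone, the contrast within APTKA medium called 66 genes (0.452%; 43 higher, 23 lower) and that within APTK medium 139 (0.951%; 56 higher, 83 lower). Within APTKA medium the count was 21 to 33 without APTKA II, III or IV or irradiated APTKA I, III or IV. Within APTK medium it was 20 to 29 without APTK II, III or IV or irradiated APTK I or III, and 1286 without irradiated APTK IV. Both contrasts called 4 genes, Nqo1, Ctsk, Gpr137b and Hes1, and all 4 rose in both. Of the 66 genes called in APTKA medium, 53 had the same sign in APTK medium, 23 of them at an unadjusted p under 0.05 there. Of the 139 called in APTK medium, 83 had the same sign in APTKA medium, 36 of them at an unadjusted p under 0.05. Of the 323 pooled calls, 321 had the same sign in both media, which calling on the average of both effects largely fixes. The exceptions were Chac1 (0.01 in APTKA medium and -1.19 in APTK medium, log2) and Cilp (0.23 and -0.71), whose pooled values rest on APTK medium. Agreement was loose over the whole transcriptome: 56.8% of tested genes had the same sign in both media, and Pearson's r of the 2 sets of log2 fold changes was 0.14 across genes, which are not independent replicates. The difference between the 2 irradiation effects was called for 19 genes (0.13%), none of them among the 323. A missing call of the difference does not show that the effects were equal.

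**Figure D2:**
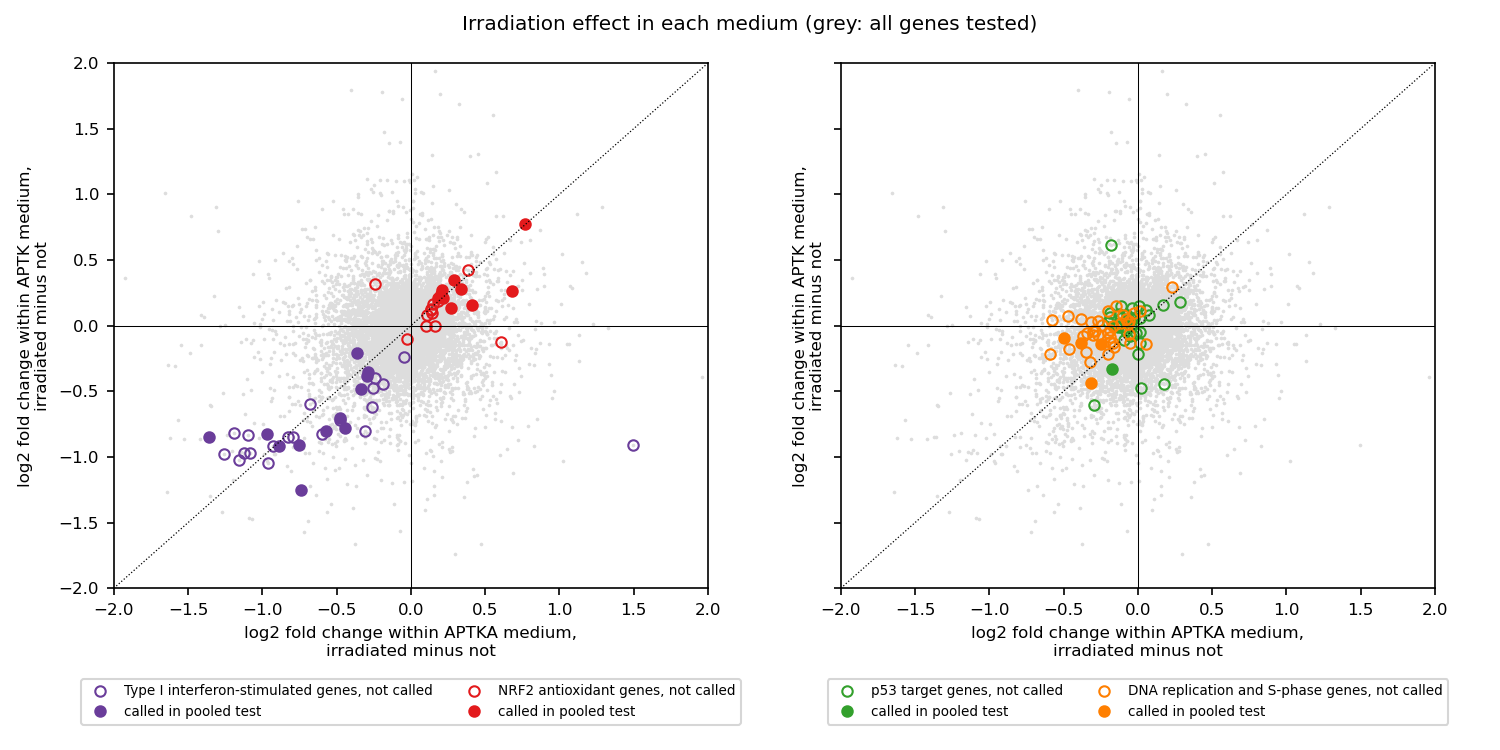
Log2 fold change of irradiated against not irradiated libraries within APTKA medium (x axis) and within APTK medium (y axis); grey points are all tested genes (12 lie outside the range of ±2), coloured circles members of 4 gene lists, filled where called in the pooled test. Of the 32 interferon-stimulated genes, 31 lie in the lower left quadrant, and 18 of 22 NRF2 genes lie in the upper right. The p53 targets scatter around the origin, with Plk3 (-0.18 and 0.61), Sesn2 (0.02 and -0.48) and Gdf15 (-0.29 and -0.60) among those farther out.

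The clearest changes were those without overlap between the groups in either medium. In both media all 4 irradiated libraries lay above the 4 others for 64 tested genes (0.438%), 51 of them called, and below them for 38 genes (0.26%), 28 of them called. Nqo1 (chr8:107388225-107403206, minus strand on mm10), a quinone reductase and classical NRF2 target, had the smallest p of all genes and the largest rise among called genes with a mean log2 CPM of at least 2. Its level was 30.6, 26.3, 29.0 and 26.5 CPM in APTKA libraries I to IV and 48.0, 43.4, 47.9 and 52.0 in the irradiated APTKA libraries. In APTK medium it was 51.0, 43.2, 40.7 and 44.8 CPM, and in irradiated APTK medium 78.5, 86.1, 78.9 and 64.1. Every irradiated library thus lay above every library of its own medium without irradiation, with irradiated APTK IV the lowest of its group. The pooled log2 fold change was 0.77 ± 0.06 (SE), adjusted p = 3.97e-08, with 0.77 in APTKA and 0.77 in APTK medium. Untreated fibroblasts held 59.0 to 75.7 CPM, above both media without irradiation.

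Hes1 (chr16:30064384-30067796, plus strand), a transcriptional repressor and Notch target, went from 34.5, 32.8, 29.9 and 29.6 CPM in APTKA medium to 45.6, 39.0, 47.7 and 40.4 in irradiated APTKA medium. In APTK medium its level was 44.9, 46.5, 40.6 and 45.4 CPM, against 61.4, 47.4, 57.9 and 63.2 with irradiation. The groups did not overlap in either medium (log2 fold change 0.41 ± 0.06 (SE), adjusted p = 0.00101). Fosb, an AP-1 subunit induced by growth signals, stood at 2.55, 2.52, 2.17 and 2.5 CPM in APTKA, 6.26, 4.20, 3.68 and 2.93 in irradiated APTKA, 6.80, 7.39, 7.42 and 5.05 in APTK and 14.7, 10.4, 9.25 and 7.97 CPM in irradiated APTK medium (log2 fold change 0.71 ± 0.14 (SE), adjusted p = 0.0162). Tnc, the matrix glycoprotein tenascin C, was among the more abundant transcripts. Its range was 7190 to 7695 CPM in APTKA, 8222 to 9745 in irradiated APTKA, 3311 to 3842 in APTK and 3937 to 5575 CPM in irradiated APTK medium, with irradiated APTK library IV nearest to the plain ones (log2 fold change 0.37 ± 0.06 (SE), adjusted p = 0.00331). Smaller rises without overlap were those of Ass1, argininosuccinate synthase of the urea cycle (0.36 ± 0.06 (SE), adjusted p = 0.00335), the transcription factor Dach2 (0.37 ± 0.07 (SE), adjusted p = 0.0104), Ramp3, which modifies calcitonin-family receptors (0.48 ± 0.11 (SE), adjusted p = 0.0195), and Hdgfl3 (0.38 ± 0.09 (SE), adjusted p = 0.0264). Hdgfl3 lost its call in 4 of the 27 alternatives and Fosb in 1, without irradiated APTK libraries I and II together.

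Among the falls, Prss35, a serine protease-like secreted protein, went from 8.22, 9.03, 8.61 and 10.0 CPM in APTKA medium to 6.30, 7.26, 6.51 and 4.90 in irradiated APTKA medium. Its levels were 5.80, 6.47, 5.49 and 5.90 CPM in APTK and 4.07, 3.27, 2.63 and 4.02 in irradiated APTK medium (log2 fold change -0.63 ± 0.09 (SE), adjusted p = 0.00165). Adm, which encodes the vasodilator peptide adrenomedullin, stood at 61.3, 70.3, 70.9 and 76.5 CPM in APTKA and 53.2, 51.9, 48.7 and 59.7 in irradiated APTKA medium. In APTK medium it stood at 61.8, 69.9, 69.3 and 65.0 CPM and with irradiation at 50, 52.4, 49.6 and 61.8, so that library IV nearly touched the plain group (log2 fold change -0.35 ± 0.05 (SE), adjusted p = 0.00203). Dkk2, a secreted Wnt antagonist, ranged over 257 to 295 CPM in APTKA, 238 to 246 in irradiated APTKA, 311 to 322 in APTK and 190.2 to 277 CPM in irradiated APTK medium (log2 fold change -0.33 ± 0.07 (SE), adjusted p = 0.0127). Also without overlap were Pgm5 (-0.46 ± 0.08 (SE), adjusted p = 0.00335), a phosphoglucomutase-like protein of adhesion sites, the centrosomal gene Sfi1 (-0.36 ± 0.07 (SE), adjusted p = 0.00897), the ubiquitin ligase Rnf135 (-0.34 ± 0.07 (SE), adjusted p = 0.0186), which acts on the RNA sensor RIG-I, and the cytokine receptor kinase Jak3 (-0.35 ± 0.08 (SE), adjusted p = 0.0283). Dkk2 lost its call in 1 of the 27 alternatives and Jak3 in 7. Ramp3, Tnc and Hdgfl3 share exon sequence with a gene on the opposite strand, and Sfi1 and Jak3 with a neighbour on the same strand (Drg1 and Insl3), so part of their reads may belong to those genes.

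**Figure D3:**
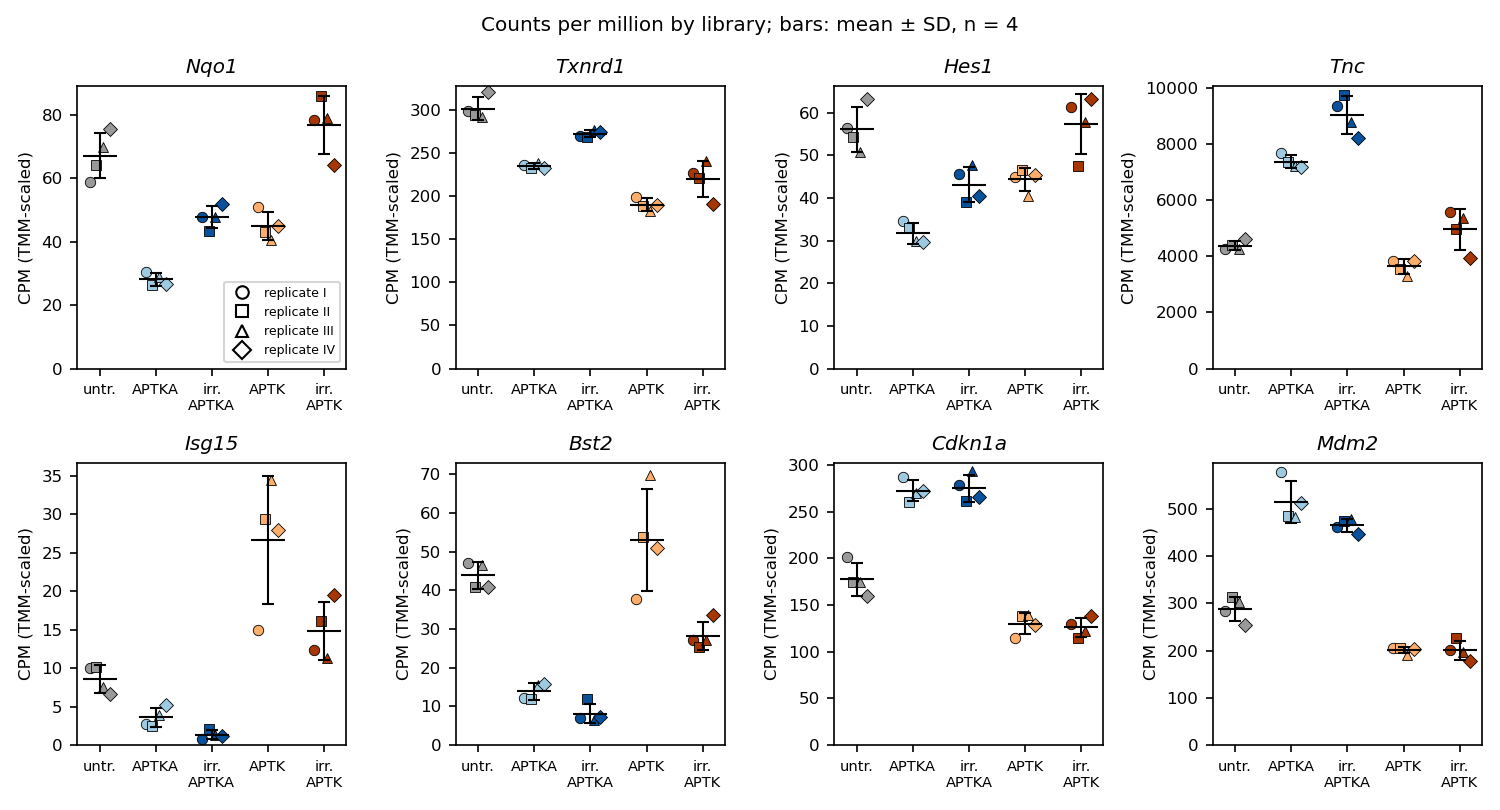
CPM (y axis, linear from 0) of 8 genes in each library of the 5 groups (x axis); symbols mark replicates I to IV, bars the mean ± SD (n = 4). Nqo1, Txnrd1, Hes1 and Tnc are higher and Isg15 and Bst2 lower in the irradiated groups, Cdkn1a overlaps in both media and Mdm2 in APTK medium; irradiated APTK library IV (diamond) lies nearest to the plain group for Nqo1, Txnrd1, Tnc, Isg15 and Bst2.

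Antioxidant genes of the NRF2 list had the most rises of the 30 lists. Of 22 tested members, 9 were called higher (40.9%, against 1.17% of all genes) and none lower, and 21 had a positive log2 fold change. Their median was 0.19, with 0.19 in APTKA and 0.17 in APTK medium, against 0.0031 for all genes. The fall side held no member at an unadjusted p under 0.05 in edgeR and none called by DESeq2 or limma. After Nqo1, the clearest members were Gsta4, a glutathione transferase for lipid aldehydes, and Txnrd1, the cytosolic thioredoxin reductase. Gsta4 stood at 10.4, 8.96, 9.48 and 10.3 CPM in APTKA and 15.3, 14.2, 15.4 and 17.8 in irradiated APTKA medium, without overlap. In APTK medium it stood at 15.5, 13.4, 12.4 and 14.1 CPM and with irradiation at 15.3, 19.3, 15.9 and 16.3, where irradiated library I lay inside the plain range (log2 fold change 0.47 ± 0.08 (SE), adjusted p = 0.00332). Txnrd1 held 236, 232, 238 and 232 CPM in APTKA and 270.0, 268, 277 and 274 in irradiated APTKA medium. In APTK medium it held 199, 189, 182 and 189.8 CPM, and with irradiation 226, 221, 241 and 190.3, with library IV inside the plain range (log2 fold change 0.21 ± 0.04 (SE), adjusted p = 0.00848).

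The other called members cover glutathione synthesis, NADPH supply and peroxide removal. Both subunits of glutamate-cysteine ligase, the rate-limiting enzyme of glutathione synthesis, were higher (Gclc 0.31 ± 0.08 (SE), adjusted p = 0.0393; Gclm 0.27 ± 0.06 (SE), adjusted p = 0.0184). So were the pentose phosphate enzymes G6pdx (0.20 ± 0.04 (SE), adjusted p = 0.0178) and Pgd (0.24 ± 0.05 (SE), adjusted p = 0.0109), sulfiredoxin Srxn1 (0.32 ± 0.06 (SE), adjusted p = 0.0109) and catalase, Cat (0.19 ± 0.04 (SE), adjusted p = 0.0116). Hmox1, heme oxygenase 1, had a pooled value of 0.41 ± 0.12 (SE), adjusted p = 0.105 and the cystine transporter Slc7a11 one of 0.16 ± 0.11 (SE), adjusted p = 0.487, with 0.61 in APTKA and -0.13 in APTK medium. Gstm1 was the single member with a negative value (-0.07, adjusted p = 0.683). The regulators themselves were not called, with Nfe2l2 at 0.13 ± 0.04 (SE), adjusted p = 0.113, Keap1 at -0.06 ± 0.05 (SE), adjusted p = 0.597 and Bach1, a repressor of NRF2 targets, at 0.11 ± 0.05 (SE), adjusted p = 0.219. Averaged over the 22 members, library IV of irradiated APTK medium lay at 0.00 on the log2 scale relative to plain APTK medium, and libraries I to III at 0.22, 0.26 and 0.24. The irradiated APTKA libraries lay at 0.23, 0.19, 0.24 and 0.29 relative to plain APTKA medium. Without irradiated APTK IV, 14 members were called, and without II, 12.

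Of the 9 called members, 7 had a promoter in the RefSeq table (GRCm38.p6), and 3 of these held the core letters TGACNNNGC of the antioxidant response element on either strand in the 250 bases before a start site. A gene with several start sites in the table counted as a match if any of them matched. The same letters occurred in 13.9% of the 10553 tested genes with a promoter in that table, and in 4 of the 18 members of the whole list with a promoter (22.2%), so the match is a description and not a binding site. The stretches below are shown because they place these letters beside 3 genes that rose. Capitals mark the matched letters, which in all 3 lie on the opposite strand to the gene and begin 92 (Txnrd1), 57 (G6pdx) and 134 bases (Gclm) before the matched start site. For Txnrd1 this start site lies inside the annotated gene (chr10:82833951-82897712).
Txnrd1 (chr10:82859064-82859172, plus strand): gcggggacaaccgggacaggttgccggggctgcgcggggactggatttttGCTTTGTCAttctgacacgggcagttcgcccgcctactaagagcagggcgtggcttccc
G6pdx (chrX:74428881-74428987, minus strand): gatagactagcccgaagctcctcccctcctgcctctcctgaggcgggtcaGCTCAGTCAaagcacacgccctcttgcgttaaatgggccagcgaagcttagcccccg
Gclm (chr3:122245373-122245481, plus strand): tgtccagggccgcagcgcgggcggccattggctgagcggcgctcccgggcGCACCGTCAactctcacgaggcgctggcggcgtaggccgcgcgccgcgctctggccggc

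The antiviral genes that type I interferon induces moved downwards, and their median lay farthest from 0 of the 30 lists. Of 32 tested members of the list, 12 were called lower (37.5%, against 1.04% of all genes) and none higher. All 32 had a negative pooled log2 fold change, 31 of them in both media, and the median was -0.78 (-0.64 in APTKA, -0.82 in APTK medium). Mx1, at or below 0.155 CPM in every APTKA library, was the exception within APTKA medium (1.49, against -0.91 in APTK medium). At an unadjusted p under 0.05, 31 members were lower and none higher, and DESeq2 and limma called none higher either. The count of calls depended on single libraries. It was 23 without APTK I, 7 without APTK II, 6 without APTK III, 6 without irradiated APTK I, 15 without irradiated APTK II and 26 without irradiated APTK IV, while the median stayed between -0.91 and -0.66 in all 27 alternatives. Upper-quartile scaling also gave 12.

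Isg15, a ubiquitin-like modifier (chr4:156199424-156200818, minus strand), shows both the shift and the spread. It stood at 2.69, 2.52, 3.96 and 5.21 CPM in APTKA medium and at 0.828, 2.10, 1.36 and 1.15 in irradiated APTKA medium, without overlap. In APTK medium it stood at 14.9, 29.4, 34.5 and 28.0 CPM and with irradiation at 12.4, 16.1, 11.3 and 19.5, where plain library I lay inside the irradiated range. The pooled log2 fold change was -1.0 ± 0.23 (SE), adjusted p = 0.0391, and the call was lost in 13 of the 27 alternatives. Bst2 (tetherin), which holds budding virions at the cell surface, stood at 12.3, 11.8, 15.5 and 15.9 CPM in APTKA and 6.87, 11.8, 6.43 and 7.30 in irradiated APTKA medium. It stood at 37.7, 53.8, 69.9 and 51.1 CPM in APTK and 27.1, 25.3, 27.1 and 33.5 in irradiated APTK medium (log2 fold change -0.84 ± 0.14 (SE), adjusted p = 0.0104). Irradiated APTKA library II reached the lower edge of the plain APTKA libraries, while the APTK groups did not overlap. Untreated fibroblasts held 40.9 to 47.2 CPM of Bst2 and 6.62 to 10.2 CPM of Isg15, between the 2 plain media for Isg15. The levels of both genes in APTK medium were thus several times those in APTKA medium in both arms.

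Members of the interferon signalling chain were among the called genes. Stat2 (-0.60 ± 0.13 (SE), adjusted p = 0.0319) and Irf9 (-0.41 ± 0.08 (SE), adjusted p = 0.0204), which carry the signal to the nucleus, fell, as did Irf7 (-0.71 ± 0.14 (SE), adjusted p = 0.0184), which amplifies it. So did the RNA sensor RIG-I, Ddx58 (-0.34 ± 0.08 (SE), adjusted p = 0.0288), and its regulator Dhx58 (-0.87 ± 0.18 (SE), adjusted p = 0.0189), and the nucleic acid sensor Zbp1 (-1.12 ± 0.25 (SE), adjusted p = 0.0264). Ifi27 (-0.28 ± 0.06 (SE), adjusted p = 0.0125) and Ifi35 (-0.32 ± 0.06 (SE), adjusted p = 0.0104) moved less but with a narrow spread: Ifi27 held 142, 129.6, 151 and 141 CPM in APTKA, 92.6, 122, 108 and 117 in irradiated APTKA, 195, 180.4, 197 and 189 in APTK and 168, 139, 172 and 179 CPM in irradiated APTK medium, without overlap in either. Several large differences missed the threshold, among them Ifit1 (-1.03 ± 0.29 (SE), adjusted p = 0.0864), Usp18 (-1.08 ± 0.26 (SE), adjusted p = 0.0502) and Rsad2 (-0.83 ± 0.30 (SE), adjusted p = 0.173). The libraries of Ifit1 spread widely, with 6.21, 13.0, 9.87 and 24.0 CPM in APTKA, 4.53, 7.85, 8.40 and 3.33 in irradiated APTKA, 61.8, 117, 139.8 and 104 in APTK and 41.3, 68.7, 32.9 and 73.1 CPM in irradiated APTK medium. The interferon receptor genes were not called (Ifnar1 0.10 ± 0.03 (SE), adjusted p = 0.130; Ifnar2 0.00 ± 0.04 (SE), adjusted p = 0.981), and Ifnb1 had at most 4 counts in a library and was not tested. Jak1, the kinase of the receptor, was slightly higher (0.18 ± 0.04 (SE), adjusted p = 0.0232).

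Averaged over the 32 members, the level in irradiated APTKA libraries I to IV was -0.61, -0.28, -0.46 and -0.70 on the log2 scale relative to the mean of plain APTKA medium, whose own libraries ranged from -0.30 to 0.40. In irradiated APTK medium it was -0.85, -0.54, -1.11 and -0.32, against -0.49 to 0.28 in plain APTK medium. In each medium one irradiated library, APTKA II and APTK IV, lay inside the range of the plain group.

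**Figure D4:**
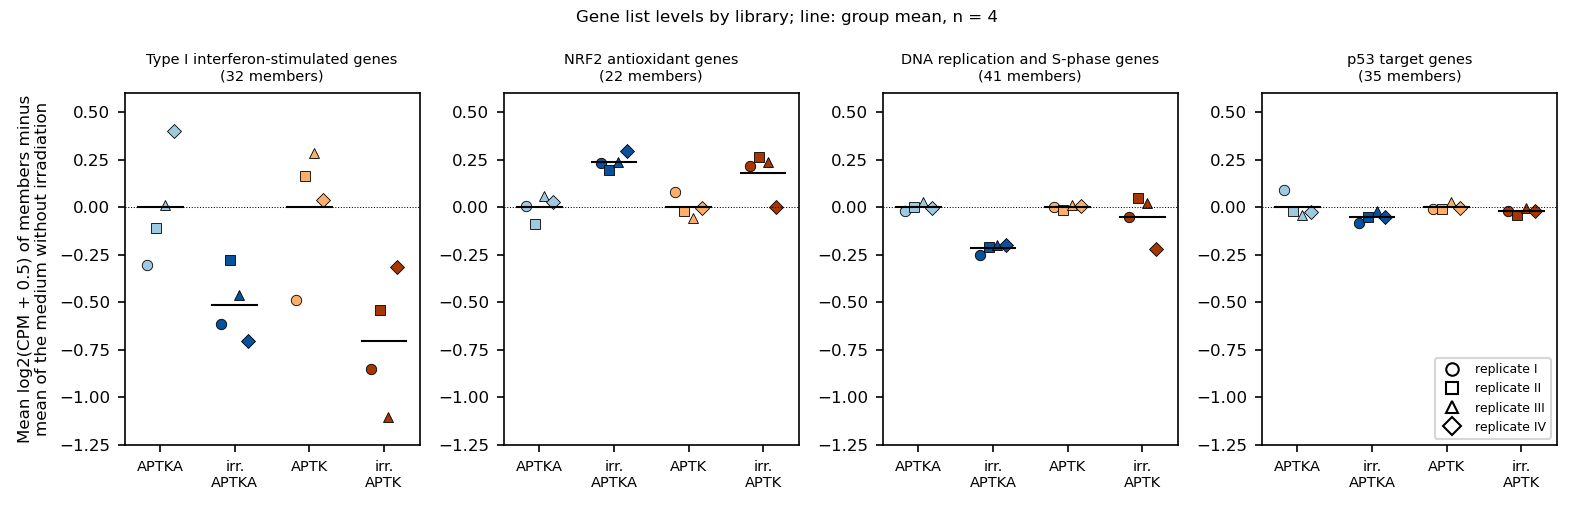
Mean log2(CPM + 0.5) of the members of 4 gene lists in each library, relative to the mean of the same medium without irradiation (y axis), by group (x axis); symbols mark replicates, lines group means (n = 4). Interferon-stimulated genes are lower and NRF2 genes higher in the irradiated groups, with irradiated APTK library IV at 0.00 for NRF2 genes; S-phase genes are at -0.25 to -0.20 in irradiated APTKA medium.

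Genes of antigen presentation and interferon-gamma response shifted with the antiviral genes but less. Of 22 tested, 8 were called lower (36.4%, against 1.04%) and none higher, with a median of -0.25 (-0.18 in APTKA, -0.28 in APTK medium); none was higher at an unadjusted p under 0.05 in edgeR or by DESeq2 or limma. The count was 9 without irradiated APTK II and 10 without IV. Called were the guanylate-binding proteins Gbp7 and Gbp3 (Gbp3 -0.80 ± 0.17 (SE), adjusted p = 0.0301), the immunity GTPase Igtp (-0.71 ± 0.16 (SE), adjusted p = 0.0360), the transcription factor Irf1 (-0.25 ± 0.05 (SE), adjusted p = 0.0115), the immunoproteasome subunit Psmb8 (-0.44 ± 0.11 (SE), adjusted p = 0.0308), the class I transactivator Nlrc5 (-0.68 ± 0.17 (SE), adjusted p = 0.0403) and the class I genes H2-T23 (-0.25 ± 0.06 (SE), adjusted p = 0.0398) and H2-Q4 (-0.60 ± 0.15 (SE), adjusted p = 0.0402). Gbp7 stood at 7.59, 8.08, 8.52 and 9.59 CPM in APTKA and 5.97, 7.42, 4.65 and 5.22 in irradiated APTKA medium, and at 26.2, 31.7, 34.8 and 29.2 in APTK and 15.8, 20.7, 15.1 and 24.0 CPM in irradiated APTK medium (log2 fold change -0.62 ± 0.10 (SE), adjusted p = 0.00629). Neither medium showed overlap for Gbp7, which shares exon sequence with Gm43802 on the same strand. The constitutive parts of class I presentation did not pass, with B2m at 0.02 ± 0.04 (SE), adjusted p = 0.854 and H2-D1 at -0.04 ± 0.05 (SE), adjusted p = 0.724. Near-identical copies in the Gbp, Irg and H2 families can exchange reads, so single values of these families are uncertain.

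The interferon-stimulated response element, searched as GAAANNGAAA on either strand of the same 250 bases, was found in 10 of the 24 tested members with a promoter in the table (41.7%) and in 3.15% of tested genes. Among the 12 called members, 9 had a promoter and 3 held the letters. These 3 stretches are shown because they carry the sequence that the complex holding Stat2 and Irf9 is known to bind. Capitals mark the matched letters, overlapping matches included, and the nearest match begins 124 (Bst2), 222 (Stat2) and 66 bases (Isg15) before the start site. A match says nothing of binding in these cells.
Isg15 (chr4:156200825-156200934, minus strand): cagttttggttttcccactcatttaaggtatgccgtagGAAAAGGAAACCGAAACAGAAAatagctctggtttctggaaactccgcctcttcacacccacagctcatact
Bst2 (chr8:71537537-71537646, minus strand): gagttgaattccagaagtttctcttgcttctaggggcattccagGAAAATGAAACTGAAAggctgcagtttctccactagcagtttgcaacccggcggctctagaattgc
Stat2 (chr10:128270248-128270335, plus strand): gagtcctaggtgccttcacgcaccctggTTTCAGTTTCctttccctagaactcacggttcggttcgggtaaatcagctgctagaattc
The Isg15 and Bst2 stretches carry several overlapping matches (3 and 2), and the Stat2 stretch carries 1.

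No target gene of p53 passed the pooled test upwards. Of 35 tested, none was called higher (against 1.17% of all genes) and 1 lower (2.86%, against 1.04%), Pidd1, which encodes a scaffold of caspase activation (-0.25 ± 0.06 (SE), adjusted p = 0.0404). At an unadjusted p under 0.05, edgeR found 1 higher and 5 lower; DESeq2 called 0 higher and limma 1. The median was -0.03 (-0.05 in APTKA, 0.03 in APTK medium). Cdkn1a stood at 287, 259.9, 269.9 and 272 CPM in APTKA and 279, 262, 294 and 265 in irradiated APTKA medium, and at 115, 138, 139 and 129 in APTK and 129.5, 115, 122 and 138 CPM in irradiated APTK medium. These groups overlapped in both media, and the 95% interval of the pooled log2 fold change was -0.10 to 0.07. For Mdm2 the values were 578, 486, 482 and 512 CPM in APTKA, 463, 474, 478 and 446 in irradiated APTKA, 205, 205, 191 and 203 in APTK and 202, 227, 196 and 178 CPM in irradiated APTK medium (interval -0.17 to 0.02). In APTKA medium all 4 irradiated libraries lay below the plain ones for Mdm2, and in APTK medium the groups overlapped. Intervals for Ccng1 (-0.01 to 0.17), Bax (-0.07 to 0.10), Eda2r (-0.10 to 0.08) and Zmat3 (-0.11 to 0.11) were as narrow. The upper 95% bound lay under a 1.5-fold rise for 34 of the 35 targets, the exception being the weakly expressed Perp (-0.27 to 0.77). The single target higher at an unadjusted p under 0.05 was Pmaip1, the death effector Noxa (0.17 ± 0.05 (SE), adjusted p = 0.0903). Trp53 itself had -0.03 ± 0.07 (SE), adjusted p = 0.890. Within APTK medium alone, 2 targets were called, Plk3 higher (0.61, adjusted p = 0.00295) and Sesn2 lower (-0.48, adjusted p = 1.79e-04). Within APTKA medium they had -0.18 (adjusted p = 0.399) and 0.02 (adjusted p = 0.928), and both are among the genes whose effect differed between the media.

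Lists of damage signalling and growth arrest gave few calls. Among 38 DNA damage signalling and repair genes, 1 was lower (2.63%, against 1.04%; Msh6, mismatch repair, -0.18 ± 0.04 (SE), adjusted p = 0.0279) and none higher, with 1 higher and 8 lower at an unadjusted p under 0.05 and 0 higher by DESeq2 or limma. None of 17 CDK inhibitor and senescence genes was called by edgeR; 0 were higher and 4 lower at an unadjusted p under 0.05, DESeq2 called 1 lower and limma 0. Cdkn2a had -0.09 ± 0.07 (SE), adjusted p = 0.548 and Lmnb1, whose loss marks senescent cells, 0.01 ± 0.07 (SE), adjusted p = 0.950. Gdf15, a stress cytokine on the p53 list, had the lowest pooled value of that list, -0.42 ± 0.13 (SE), adjusted p = 0.0911. It was called lower in 4 of the 27 alternatives, and its groups did not overlap in APTK medium but did in APTKA medium.

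DNA replication genes were on the lower side, chiefly in APTKA medium. Of 41 tested, 4 were called lower in the pooled test (9.76%, against 1.04%) and none higher, and 38 had a negative log2 fold change; none was higher at an unadjusted p under 0.05 or by DESeq2 or limma. The median was -0.15, with -0.20 in APTKA and -0.05 in APTK medium. The called members were the helicase subunits Mcm2 (-0.30 ± 0.07 (SE), adjusted p = 0.0186) and Mcm3 (-0.27 ± 0.07 (SE), adjusted p = 0.0431), the polymerase delta subunit Pold1 (-0.20 ± 0.05 (SE), adjusted p = 0.0366) and Uhrf1 (-0.37 ± 0.08 (SE), adjusted p = 0.0162), which maintains DNA methylation at the fork. Mcm2 stood at 36.9, 39.0, 40.6 and 38.2 CPM in APTKA and 26.1, 30.2, 25.9 and 27.2 in irradiated APTKA medium, without overlap. In APTK medium it stood at 25.7, 22.1, 24.1 and 23.7 CPM and with irradiation at 23.2, 22.8, 24.4 and 19.4, with overlap. Its within-medium log2 fold changes were -0.50 (adjusted p = 0.00123) and -0.09 (adjusted p = 0.617), but their difference was not called by edgeR (adjusted p = 0.140). Averaged over the 41 genes, the 4 irradiated APTKA libraries lay at -0.25, -0.21, -0.20 and -0.20 relative to plain APTKA medium (-0.02 to 0.03), while irradiated APTK libraries I to IV lay at -0.05, 0.05, 0.02 and -0.22. The difference between the media was called for none of the 41. Without irradiated APTK II, 10 members were called lower, and without IV, 5.

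Of 35 mitotic genes, 1 was called lower (2.86%, against 1.04%; Incenp, -0.21 ± 0.05 (SE), adjusted p = 0.0483) and none higher; at an unadjusted p under 0.05 there were 9 lower and 0 higher, and DESeq2 and limma called 0 higher. The count was 5 without irradiated APTK II. The median was -0.26 in APTKA and 0.07 in APTK medium. Mki67, a marker of cycling cells, stood at 9.60, 12.4, 15.4 and 13.9 CPM in APTKA, 11.0, 9.03, 8.40 and 9.59 in irradiated APTKA, 10.8, 13.4, 12.1 and 11.8 in APTK and 11.5, 15.3, 9.67 and 11.5 CPM in irradiated APTK medium (log2 fold change -0.22 ± 0.11 (SE), adjusted p = 0.289). Fewer cycling cells and less RNA per cell cannot be told apart in bulk libraries.

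The inflammatory programme for which these fibroblasts are studied showed few changes common to both media. Among 26 cytokines and mediators, 1 was called lower (3.85%, against 1.04%; Cxcl12, a homeostatic chemokine, -0.27 ± 0.07 (SE), adjusted p = 0.0385, lost in 12 of the 27 alternatives) and none higher by edgeR; at an unadjusted p under 0.05, 2 were higher and 5 lower, DESeq2 called 1 higher and limma 0. The count of lower calls was 0 without irradiated APTK II and 3 without IV. Il6 had 0.19 ± 0.15 (SE), adjusted p = 0.547, Ccl2 0.06 ± 0.16 (SE), adjusted p = 0.897 and the neutrophil chemokine Cxcl1 -0.24 ± 0.09 (SE), adjusted p = 0.142. The pooled value of Cxcl5 was -0.37 ± 0.14 (SE), adjusted p = 0.210. Cxcl1 and Cxcl5 were each called lower in 4 of the 27 alternatives, DESeq2 among them. Il6 and Ccl2 were called in none. Cxcl5 was lower within APTK medium, at 12.8, 14.7, 15.4 and 11.9 CPM against 7.20, 6.08, 6.94 and 9.30 with irradiation (log2 fold change -0.88, adjusted p = 0.0217), and held 102, 144, 146 and 115 CPM in APTKA and 123, 136, 121 and 102 in irradiated APTKA medium. The difference between these effects was not called (adjusted p = 0.154). Of the 26 members, the difference between media was called for 1, Lif, against 0.13% of all genes. Its log2 fold change was -0.38 in APTKA and 0.53 in APTK medium (adjusted p of the difference 0.0301, edgeR). The list median was -0.19 in APTKA and 0.04 in APTK medium. No member of 19 NF-kB genes or of 14 IL-1 family genes was called by edgeR. At an unadjusted p under 0.05 there were 0 higher and 3 lower for NF-kB and 1 in each direction for the IL-1 family; DESeq2 called 0 in both lists, and limma 2 lower for NF-kB and 0 for the IL-1 family. Il1a, the ligand, had 0.63 ± 0.31 (SE), adjusted p = 0.299 at a level of 0.210 to 0.626 CPM in APTKA medium, and its receptor Il1r1 0.04 ± 0.07 (SE), adjusted p = 0.816. Il33 had 0.10 ± 0.27 (SE), adjusted p = 0.892. Among 9 complement genes, 1 was called (11.1%, against 2.21%): the decay-accelerating factor Cd55 was lower (-0.45 ± 0.12 (SE), adjusted p = 0.0408), at 2.70 to 3.16 CPM in APTKA, 1.65 to 2.5 in irradiated APTKA, 2.83 to 3.25 in APTK and 1.65 to 2.87 CPM in irradiated APTK medium, and lost its call in 14 of the 26 alternatives in which it was tested.

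Secreted growth factors, proteases and matrix genes gave a handful of rises. Hgf, the ligand of the Met receptor on epithelia, held 91.4, 74.5, 72.8 and 71.5 CPM in APTKA and 105, 107, 101 and 101 in irradiated APTKA medium, and 122, 136, 120.5 and 122 in APTK and 150.2, 178, 147 and 128 CPM in irradiated APTK medium (log2 fold change 0.34 ± 0.06 (SE), adjusted p = 0.00699); the groups did not overlap in APTKA medium and did in APTK medium, and Hgf shares exon sequence with Gm43489 on the same strand. Hgf was among the 2 called higher of 27 growth factors (7.41%, against 1.17% of all genes), with none lower by edgeR; 3 were lower at an unadjusted p under 0.05, DESeq2 called 0 lower and limma 3, and 3 were lower without irradiated APTK IV.

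Ctsk, the collagen-degrading protease cathepsin K, was the second gene by p. It stood at 59.4, 51.0, 50.2 and 53 CPM in APTKA, 64.0, 69.8, 69.1 and 64.9 in irradiated APTKA, 101, 100.2, 98.0 and 101 in APTK and 127, 130.4, 131 and 114 CPM in irradiated APTK medium (log2 fold change 0.33 ± 0.04 (SE), adjusted p = 1.86e-04). The groups did not overlap in either medium. With Timp2, an inhibitor of metalloproteinases (0.18 ± 0.04 (SE), adjusted p = 0.0391), it made up the 2 called of 25 protease genes (8%, against 2.21%); the count was 5 without irradiated APTK II and 5 without IV, and Mmp3 had 0.20 ± 0.29 (SE), adjusted p = 0.787. Of 37 matrix genes, 3 were called (8.11%, against 2.21%): Tnc and the crosslinking enzyme Loxl2 (0.17 ± 0.04 (SE), adjusted p = 0.0401) were higher and Mfap4, a microfibril protein, lower (-0.67 ± 0.10 (SE), adjusted p = 0.00165). Mfap4 stood at 8.96, 8.12, 8.70 and 8.23 CPM in APTK and 4.62, 4.82, 5.15 and 5.55 in irradiated APTK medium, and at 0.945 to 1.29 and 0.537 to 0.968 CPM in APTKA and irradiated APTKA medium, and it shares exon sequence with Mapk7 on the opposite strand. Col1a1, the main fibrillar collagen, had 0.08 ± 0.09 (SE), adjusted p = 0.713.

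Contractile genes did not pass: of 21, 0 were called by edgeR, DESeq2 or limma, with 2 higher and 1 lower at an unadjusted p under 0.05, and Acta2, smooth muscle actin, had 0.01 ± 0.05 (SE), adjusted p = 0.979. Of 22 TGF-beta pathway genes, 0 were called by edgeR in the pooled test, with 9 higher and 1 lower at an unadjusted p under 0.05. DESeq2 called 3 higher and 1 lower and limma 2 higher and 1 lower. Within APTK medium, 1 member was called, Id1, and Tgfb1 had a pooled value of 0.13 ± 0.07 (SE), adjusted p = 0.355. Of 12 markers of quiescent and adventitial fibroblasts, 3 were called lower (25%, against 1.04% of all genes), while the list median was 0.03 and 7 of the 12 were positive. Dpt (-0.37 ± 0.08 (SE), adjusted p = 0.0165), Cilp (-0.61 ± 0.13 (SE), adjusted p = 0.0178) and Ackr3 (-0.48 ± 0.13 (SE), adjusted p = 0.0460) were lower, and none was higher by edgeR; 2 were higher at an unadjusted p under 0.05, and DESeq2 called 1 higher and limma 2. Dermatopontin, Dpt, stood at 39.6, 47.1, 55.0 and 49.0 CPM in APTKA and 35.6, 36.8, 32.9 and 30.1 in irradiated APTKA medium, without overlap, and at 20.9, 18.7, 22.8 and 18.6 in APTK and 16.2, 20.7, 17.5 and 15.2 CPM in irradiated APTK medium, with overlap. Cilp was near absent in APTKA medium (0.245 to 0.509 CPM), so its pooled value rests on 26.2, 20.9, 22.9 and 23.2 CPM in APTK against 11.7, 13.8, 17.8 and 13.2 in irradiated APTK medium. Pdgfra had -0.02 ± 0.06 (SE), adjusted p = 0.917.

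Of 17 JAK-STAT3 genes, 2 were called (11.8%, against 2.21%), among them the receptor kinase Jak1, which was higher. In the pooled test, single members were called in 6 further lists, shares of 3.45% to 5.56% against 2.21% of all genes. They were the tissue factor F3 among 18 YAP targets (0.21 ± 0.05 (SE), adjusted p = 0.0289), the transcription factor Xbp1 among 22 endoplasmic reticulum genes (0.17 ± 0.04 (SE), adjusted p = 0.0391), Fosb among 26 immediate early and MAPK feedback genes, Adm among 29 glycolysis and hypoxia genes, Dkk2 among 22 niche genes and Chac1 among 27 genes of the integrated stress response. Chac1, which degrades glutathione, stood at 32.7, 29.2, 28.4 and 32.3 CPM in APTK and 9.13, 21.3, 10.3 and 13.7 in irradiated APTK medium. In APTKA medium it ranged over 1.25 to 1.83 CPM in the plain and 1.24 to 1.8 in the irradiated libraries, and the difference of effects was not called (adjusted p = 0.295). Of the 27 stress response genes, 6 were called within APTK medium (against 0.951% of all genes) and 2 within APTKA medium (against 0.452%). Their median was -0.11 in APTK and 0.06 in APTKA medium. The difference between media was called for 2 of the 27, Sesn2 and Slc1a4, against 0.13% of all genes. The lysosomal (26 genes), circadian (18), nuclear respiratory chain (29), cholesterol (28) and mitochondrially encoded lists (7) had 0 calls by edgeR in the pooled test. At an unadjusted p under 0.05 they held 4, 3, 2, 2 and 1 higher and 0, 1, 0, 3 and 0 lower members, DESeq2 called 1 lysosomal gene higher, and limma called 2. Within APTK medium, 5 of the 28 cholesterol genes and 1 circadian gene were called, against 0.951% of all genes. The cholesterol median was 0.12 in APTKA and -0.17 in APTK medium, and the difference between media was called for 1 member, Sqle. The 7 mitochondrially encoded genes tested, of 13 listed, had the highest median of the 30 lists, 0.26, with 0.14 in APTKA and 0.40 in APTK medium, where the irradiated libraries also differed in their mitochondrial share, whose part in this was not tested.

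**Figure D5:**
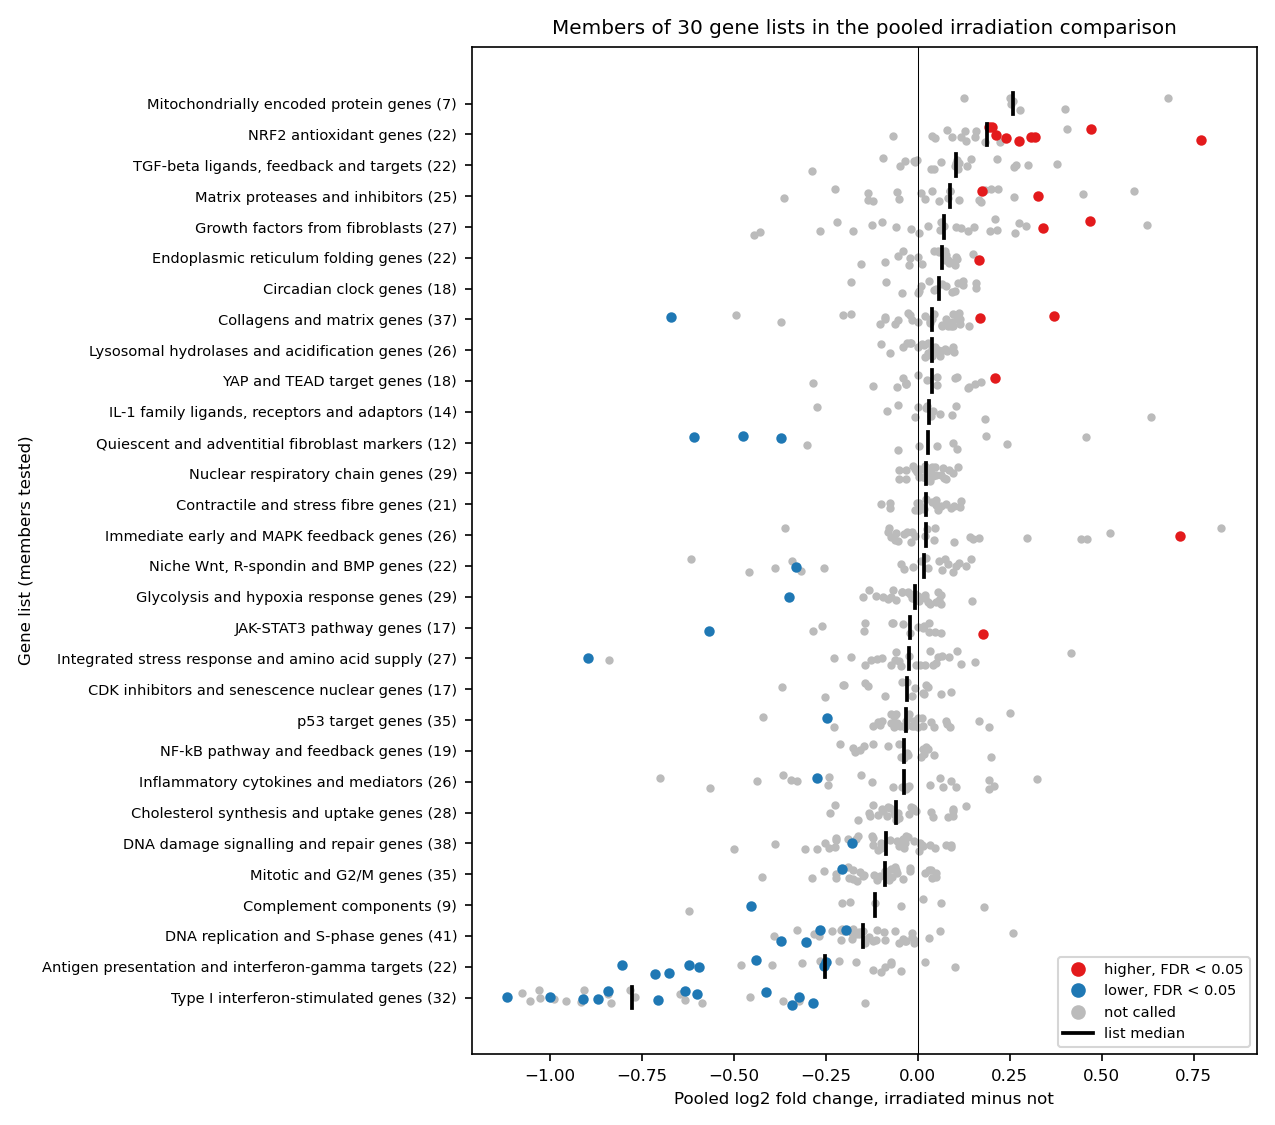
Pooled log2 fold change (x axis) of each tested member of 30 gene lists (y axis, number tested in brackets); red and blue points are members called higher and lower, grey points not called, black bars list medians. The interferon-stimulated genes (median -0.78) and NRF2 genes (0.19) carry the most calls; the mitochondrially encoded genes have a median of 0.26 with none called.

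The irradiation effect differed between the 2 media for a small set of genes. The test of the difference called 19 genes, and all 19 had estimates of opposite sign. In each of the 4 genes described here, the effect was called in 1 medium and not in the other. Id1, a target of BMP signalling, stood at 5.77, 5.47, 5.38 and 5.52 CPM in APTK and 11.9, 8.72, 11.5 and 8.44 in irradiated APTK medium, and at 6.11, 5.53, 5.74 and 5.36 in APTKA and 4.32, 5.10, 5.89 and 5.22 CPM in irradiated APTKA medium. Its effects were 0.88 (adjusted p = 6.55e-04) and -0.15 (adjusted p = 0.675), with an adjusted p of the difference of 0.0157. Plk3, a stress-responsive kinase and p53 target, had 0.61 in APTK and -0.18 in APTKA medium (adjusted p = 0.0157). Sesn2, a p53 target that restrains mTORC1 under amino acid shortage, went from 109.9, 108, 117 and 112 CPM in APTK to 80.7, 87.5, 76.6 and 77.1 in irradiated APTK medium and held 70.6 to 84.1 and 77.0 to 81.1 CPM in the 2 APTKA groups (adjusted p of the difference 0.0157). Spry2, a feedback inhibitor of receptor tyrosine kinase signalling, went from 99.0, 103, 109 and 102 CPM in APTKA to 51.9, 70.5, 59.6 and 61.3 in irradiated APTKA medium and held 126, 115, 141 and 121 and 114, 148, 137 and 114 CPM in the 2 APTK groups (adjusted p of the difference 0.0214). For these 4 genes the pooled log2 fold changes were 0.38, 0.19, -0.23 and -0.36, none of them called. The count of 19 depended on single libraries, ranging from 0 without APTK IV or irradiated APTK III to 325 without irradiated APTK IV, and was 51 without irradiated APTK II.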

How the data were processed

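The authors deposited 1 table of raw read counts per gene for each library, not normalised; 16 of the 20 tables enter the comparison. The submitters' processing notes name the mm10 build, featureCounts 1.5.0-p1, STAR 2.5.2a and bcl2fastq 2.20.0.422. The annotation release, strand setting and treatment of multi-mapping reads were not given in the sources used here. Of 47729 identifiers, 47224 matched a symbol and 505 did not. Coordinates and exon overlaps are from GENCODE vM21 on mm10, counted from 1; of 71 named genes, 19 overlap exons of another gene, 15 of them on the opposite strand, and without a known strand setting such reads cannot be told apart.

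Counts were fitted in R 4.3.3 with edgeR 4.0.16 (TMM, default expression filter by group, robust quasi-likelihood, medium plus irradiation over 16 libraries, 13 residual degrees of freedom), with Benjamini-Hochberg adjustment over 14617 genes and a threshold of 5%. Effects within a medium and their difference came from 4 group means (12 degrees). A gene "called", "higher", "lower", "rose" or "fell" passed that threshold, and "± (SE)" with an adjusted p always refers to the pooled log2 fold change from this test. SE was derived from the log2 fold change and the F statistic, as their ratio after taking the root of F. CPM values were scaled by TMM over all 20 libraries, so that untreated libraries stand on the same scale. Limma 3.58.1 and DESeq2 1.42.0 were alternatives, beside other scalings, filters, models and left-out libraries. The test was checked on simulated counts. Replicate libraries of a group differed by more than counting noise in all 24 pairs, with chi-square divided by its degrees of freedom at 4.80 to 88.4.

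Members and gene lists were chosen with earlier results of these data known. Named genes are the 8 largest rises and 8 largest falls past the threshold without overlap in either medium and with a mean log2 CPM (offset 0.5) of at least 2, up to 3 called members per list, 4 genes of the difference test with opposite signs, and 22 fixed genes; predicted genes were left out. Other list members are named to describe a list, and some results are not reported here. Lists were given no test; their counts are to be read against the shares of all genes.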

Additional observations from a re-analysis of the deposited data

Results flagged for a closer look

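In 300 sets of 4 libraries (71 named genes and 4 library measures in 4 groups), 7 held a library far from the other 3 by Dixon's criterion, where chance alone gives about 1 in 20. In Bst2, irradiated APTKA library II held 11.8 CPM against 6.43 to 7.30 in the others. Hgf stood at 91.4 CPM in APTKA I (others 71.5 to 74.5) and at 136 CPM in APTK II (others 120.5 to 122). Irf1 stood at 45.9 CPM in irradiated APTK IV (others 40.8 to 41.5). Uhrf1 was at 6.17 CPM in irradiated APTK III (others 5.35 to 5.45), Lmnb1 at 9.0 CPM in APTK III (others 7.89 to 8.08) and Fosb at 2.17 CPM in APTKA III (others 2.5 to 2.55).

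The irradiation effect differed between the media for 4 named genes. The difference, APTKA minus APTK medium on the log2 scale, was -0.79 for Plk3 (adjusted p = 0.0157, edgeR), 0.50 for Sesn2 (adjusted p = 0.0157), -1.03 for Id1 (adjusted p = 0.0157) and -0.79 for Spry2 (adjusted p = 0.0214). These 4 genes were chosen for that difference.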

How the results depend on the processing

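All 46 called genes among the 71 named kept their direction in the alternatives in which they were tested (27, or 26 for Ramp3 and Cd55), and 24 kept their call in each of these. The pooled count of 323 was 318 with RLE factors and 278 with upper-quartile scaling, which moved the share of higher calls from 52.9% to 34.5% (96 higher). It was 670 without a filter on low counts (309 higher, 361 lower), 735 with DESeq2 (442 and 293) and 918 with limma-voom and sample quality weights (524 and 394), and these held 275, 312 and 320 of the 323. Leaving out one library gave 125 to 850 calls (67 to 482 higher, 58 to 368 lower). Calls within APTKA medium (66) were 258 without the filter, 255 with DESeq2 and 21 to 92 with a library left out. Those within APTK medium (139) were 512, 406 and 20 to 1286, and those of the difference (19) were 172, 113 and 0 to 325. Interferon-stimulated genes called lower (12) were 30 without the filter, 27 with DESeq2, 29 with limma, 25 without robust dispersions, 2 without irradiated APTK I and II together and 6 to 26 with a library left out. NRF2 genes called higher (9) were 14 with DESeq2 and with limma and 7 to 14 otherwise; 8 to 14 with a library left out. The p53 targets called higher (0) were 1 without the filter, 1 with limma and 0 to 1 with a library left out (1 without APTKA I). The cause of these shifts was not tested, beyond the fewer samples in the fits that leave libraries out.

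Libraries with the same replicate number within a medium showed little common deviation (correlations -0.064 to 0.097 over 8 pairs; 3 of 8 pairs best with their own number). So few pairs cannot tell whether equal numbers mark a shared culture or batch, which the labels do not give. With the replicate number as a block, 213 genes were called, 110 of them higher, and the difference of effects was called for 40. Counts of 17.3 M or more per library limit what can be seen of genes near the filter, such as Il1a and Mx1.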

Other observations

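Outside the lists, further interferon-inducible genes stood among the pooled falls. They were picked after their values were seen, so they are values and no independent support for the list. Ifi213 (log2 fold change -1.30 ± 0.26 (SE), adjusted p = 0.0124), Phf11d (-1.02 ± 0.21 (SE), adjusted p = 0.0232), Slfn8 (-1.0 ± 0.25 (SE), adjusted p = 0.0483), Ddx60 (-0.99 ± 0.22 (SE), adjusted p = 0.0289), Ifi27l2a (-0.94 ± 0.22 (SE), adjusted p = 0.0289), Oas1b (-0.93 ± 0.21 (SE), adjusted p = 0.0283), Apol9b (-0.72 ± 0.13 (SE), adjusted p = 0.00699) and Parp12 (-0.33 ± 0.06 (SE), adjusted p = 0.00897) were called lower by edgeR, with negative values in both media. Slfn, Apol and Oas genes have near-identical relatives that can exchange reads. Ahr, the aryl hydrocarbon receptor, which shares targets such as Nqo1 with NRF2, was called higher (0.39 ± 0.09 (SE), adjusted p = 0.0277). Its targets Cyp1b1 (-0.12 ± 0.05 (SE), adjusted p = 0.227), Tiparp (-0.13 ± 0.06 (SE), adjusted p = 0.290) and Ahrr (0.18 ± 0.09 (SE), adjusted p = 0.338) were not called. Another target, Cyp1a1, had at most 3 counts in a library and was not tested. The part of Ahr in the level of Nqo1 was not tested.

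Clustered histone genes, also listed after values were seen, had 6 of 46 tested members called lower (13%, against 1.04% of all genes) and none higher by edgeR; 25 were lower and 0 higher at an unadjusted p under 0.05, and DESeq2 and limma called 0 higher. The median log2 fold change was -0.28 and 39 of 46 were negative; Hist1h1d (-0.30 ± 0.05 (SE), adjusted p = 0.00288), Hist1h1b (-0.39 ± 0.09 (SE), adjusted p = 0.0262) and Hist1h4j (-0.65 ± 0.13 (SE), adjusted p = 0.0103) are examples. Most histone transcripts lack a poly(A) tail and the libraries were made from polyadenylated RNA, so these counts depend on how such transcripts were captured, and near-identical copies can exchange reads. Averaged over the 46, irradiated APTK libraries I to IV lay at -0.21, -0.45, 0.00 and -0.32 relative to plain APTK medium, and the irradiated APTKA libraries at -0.25 to -0.16 relative to plain APTKA medium. The part of capture or of the share of dividing cells in this was not tested.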
